A study of Arabidopsis thaliana with 12 samples.

Results

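The genes described here had a higher signal on salt in iU1-52 seedlings while their signal in the wild type Col-0 stayed near its level without salt. They were selected on the measured values themselves. A feature, which is the brightest probe of a transcript accession that was well above background on all 12 arrays, was a member when its mean log2 signal on NaCl exceeded that on MS by at least 1.5 in iU1-52 and when the same difference in Col-0 lay between -0.5 and 0.5. Of 24332 features, 58 met both limits. Of these, 54 matched a gene locus in the TAIR10.1 annotation, 32 of those carried a gene name, and 4 stayed unmatched and are given by their probe names. In all, 1605 features were at least 1.5 higher with salt in iU1-52, and the 58 members were 3.61% of them. The other features included 1544 that were also at least 0.5 higher in Col-0 and 3 that were at least 0.5 lower there.

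The arrays measured RNA from whole Arabidopsis seedlings grown for 14 days from sowing, in 4 groups of 3 biological replicates. The first group was iU1-52 on MS plates with 200 mM NaCl, the second iU1-52 on MS plates, the third Col-0 on MS plates with 200 mM NaCl and the fourth Col-0 on MS plates. The line iU1-52 is a single transgenic line in which a double-stranded RNA interference construct against GlcNA.UT1 was added to the glcna.ut2-1 mutant, and Col-0 is the wild type, so the lines differ in both genes. Salt was present from germination, so that every value is the state of the seedlings at harvest and not a response over hours.

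GlcNA.UT1 and GlcNA.UT2 make UDP-GlcNAc, the last product of the hexosamine pathway and the sugar donor with which the N-glycans of secreted and membrane proteins begin. Plants on salt face water deficit and ion excess. They commonly raise the hormone abscisic acid (ABA), which acts through receptors, protein phosphatases of type 2C and SnRK2 kinases on bZIP transcription factors, and they accumulate soluble sugars of the raffinose family, built from sucrose and galactinol, as protectants.

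No accession in the files could be paired with GlcNA.UT1 through the annotation used here, so its level was not analysed. The brighter of 2 probes for GlcNA.UT2 had mean log2 signals of 12.40 and 11.72 in iU1-52 on NaCl and on MS, against 12.92 and 12.72 in Col-0 on NaCl and on MS, and the dimmer one had 8.34, 7.32, 9.73 and 9.52 in the same order of groups. Whether these probes lie within the disrupted part of the gene was not tested. No non-control spot was saturated. Between 75.4% and 79.4% of spots per array were well above background, and 2 to 10 spots per array carried an outlier flag and were left out. Each of the 3 slides held 1 array of every group, so that a slide gives a complete set of differences of its own. The position of an array on its slide and its group cannot be told apart.

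Markers of green tissue and of seed and embryo moved with the groups, more than those of root. All 12 listed genes of green tissue were measured, and their summed signal was 690000 to 798000 in iU1-52 on NaCl, 2400000 to 2590000 in iU1-52 on MS, 2240000 to 2360000 in Col-0 on NaCl and 2370000 to 2520000 in Col-0 on MS. All 14 listed seed and embryo genes were well above background on every NaCl array of both lines, but on MS only 2 of them were so in either line. Those 2, EM6 and OLEO4, summed to 122000 to 151000 in iU1-52 on NaCl and 18800 to 34500 in Col-0 on NaCl, against 198 to 228 in iU1-52 on MS and 213 to 253 in Col-0 on MS. The 5 root genes summed to 12400 to 13500 in iU1-52 on NaCl, 12600 to 14300 in iU1-52 on MS, 11700 to 12000 in Col-0 on NaCl and 11300 to 14100 in Col-0 on MS. In RNA of whole seedlings, fewer cells of a type and less RNA per cell cannot be told apart, and the part of these markers in the members' values was not tested.

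**Figure D1:**
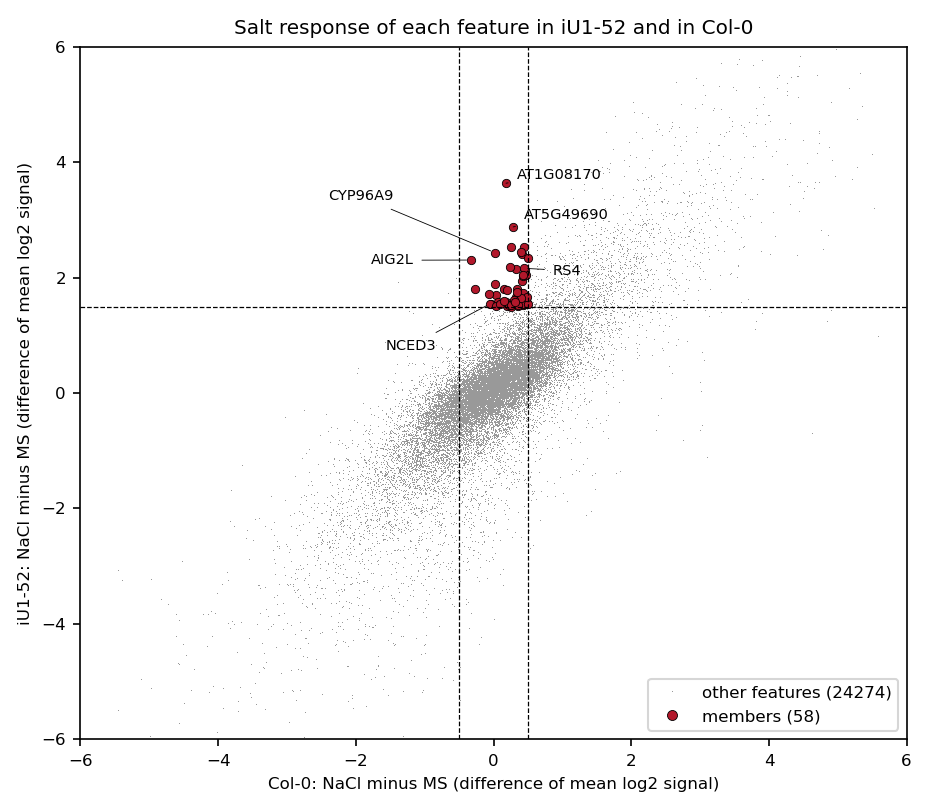
Difference of mean log2 signal, NaCl minus MS, in iU1-52 (vertical axis) against Col-0 (horizontal axis) for each feature, with the 58 members in red and the limits of 1.5, -0.5 and 0.5 as dashed lines. The axes end at 6 in both directions, which leaves 72 features outside, and the members fill the right side of the strip between the Col-0 limits.

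Within the strip the members were spread unevenly. Their salt difference in iU1-52 ran from 1.5003 to 3.64 with a median of 1.66, so that most lay close above the limit. Their salt difference in Col-0 ran from -0.33 to 0.50 with a median of 0.33, and it was above 0 for 53 members and below 0 for 5. Over all features the medians were 0.06 in iU1-52 and 0.01 in Col-0, and the Col-0 difference was above 0 for 12262 and below 0 for 12069. At an adjusted p under 0.05 without a fold limit (limma, Benjamini-Hochberg), 10 of 58 members were higher on salt in Col-0, where 34.0% of all features were, and 0 of 58 were lower, where 33.7% were. Among the 10 were AAO3, ABCA7, MYB7, MYB85, RS5, WVD2, AT1G15170, AT1G71360 and AT3G06690. The rule capped this contrast, and nothing is read from those counts.

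On every one of the 58 members, all 3 iU1-52 arrays on NaCl lay above the other 9 arrays. This held for 16.7% of all features. At an adjusted p under 0.05 and a change of at least 2-fold, 55 members were called higher in iU1-52 than in Col-0 on NaCl, where the background was 3.94%, and 55 had a positive difference between the lines in the salt response, where it was 3.14%. Those 3 measures use the arrays that chose the members and are given as a description. AT1G62620 and AT4G16563 were called in neither comparison, AT3G51540 was missed in the second and probe A_84_P751651 in the first. Without slide 2 the second count was 31 and without slide 3 it was 33. Across members, the difference between the 2 salt responses ran from 1.06 to 3.46 with a median of 1.44, and the difference between iU1-52 and Col-0 on NaCl from 0.91 to 2.95 with a median of 1.39.

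**Figure D2:**
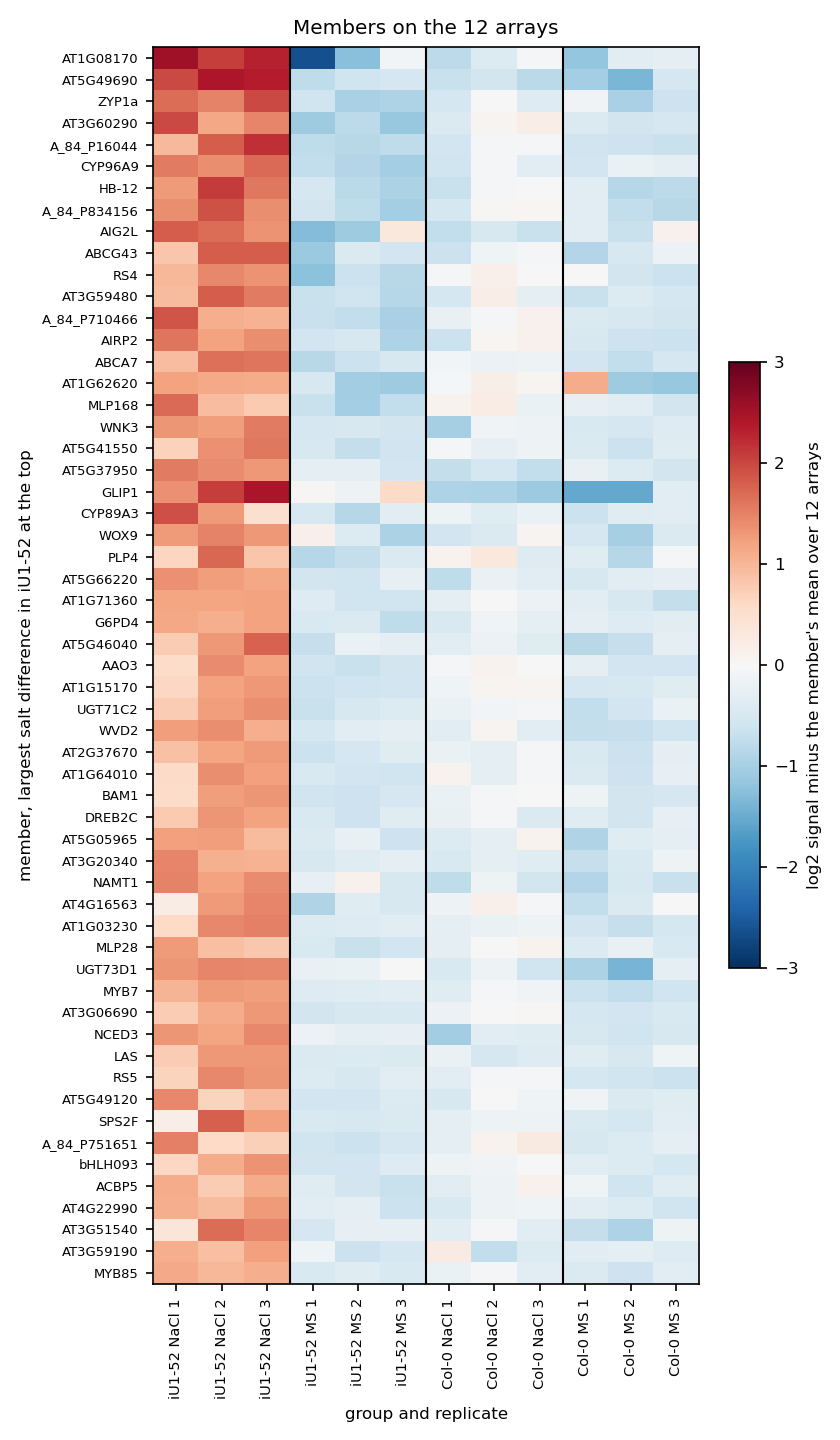
Log2 signal of each member on each array minus that member's mean over the 12 arrays, with 57 of the 58 members as rows by falling salt difference in iU1-52 and arrays as columns. The 3 columns of iU1-52 on NaCl are on the red side in every row, and single cells of the other 9 columns that stand apart include AT1G62620 in Col-0 on MS replicate 1 and AT1G08170 in iU1-52 on MS replicate 1.

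Enzymes and responders of the ABA pathway stood among the members. NCED3, the 9-cis-epoxycarotenoid dioxygenase of the rate-limiting step of ABA synthesis, had log2 signals of 9.41, 9.27 and 9.54 in iU1-52 on NaCl and 7.91, 7.80 and 7.85 in iU1-52 on MS, against 7.04, 7.78 and 7.73 in Col-0 on NaCl and 7.61, 7.49 and 7.61 in Col-0 on MS. The iU1-52 arrays on NaCl stood alone, and replicate 1 of Col-0 on NaCl was the lowest of all 12. The salt difference was 1.55 in iU1-52 and -0.05 in Col-0 (SE 0.16 each, n = 3 arrays a group).

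AAO3, the abscisic aldehyde oxidase that makes ABA in the last step, had 13.09, 13.96 and 13.75 in iU1-52 on NaCl and 11.94, 11.88 and 11.995 in iU1-52 on MS, against 12.48, 12.65 and 12.54 in Col-0 on NaCl and 12.27, 11.96 and 11.97 in Col-0 on MS. Here the Col-0 arrays on NaCl also lay above those on MS, and the Col-0 difference of 0.49 was just inside the limit, beside 1.66 in iU1-52 (SE 0.18 each). Replicate 1 of iU1-52 on NaCl was the lowest of its group.

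AIRP2, a RING-type ubiquitin ligase that promotes ABA responses, had 12.95, 12.55 and 12.73 in iU1-52 on NaCl and 10.78, 10.87 and 10.42 in iU1-52 on MS, against 10.699, 11.40 and 11.46 in Col-0 on NaCl and 10.86, 10.72 and 10.704 in Col-0 on MS. In Col-0, replicates 2 and 3 on NaCl were above all MS arrays of that line while replicate 1 was not. The differences were 2.05 in iU1-52 and 0.43 in Col-0 (SE 0.20 each).

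HB-12, a homeodomain-leucine zipper factor induced by ABA and water deficit, showed the same split of the Col-0 replicates. Its log2 signal was 14.34, 15.17 and 14.66 in iU1-52 on NaCl and 12.56, 12.26 and 12.12 in iU1-52 on MS, against 12.40, 13.03 and 13.08 in Col-0 on NaCl and 12.75, 12.21 and 12.28 in Col-0 on MS. Within slides the Col-0 difference was -0.35 on slide 1 and 0.81 and 0.80 on slides 2 and 3, beside 1.78, 2.90 and 2.54 in iU1-52.

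Most other genes of the pathway did not meet the rule. Of 14 listed genes of ABA synthesis, breakdown and transport, 11 were measured, and NCED3 and AAO3 were the members. Of the 11, 8 were called higher with salt in iU1-52 and 4 in Col-0, where 12.1% and 9.81% of all features were. None was called lower in either line. For the difference between the lines 5 were called positive, where 3.14% of all features were. The counts in iU1-52 and for the difference include NCED3 and AAO3, which the rule chose by these values, so they are a description. The median salt difference of the 11 was 1.47 in iU1-52 and 0.60 in Col-0. The seed-expressed dioxygenase NCED9 had salt differences of 3.64 in iU1-52 and 2.42 in Col-0. ABA1, the zeaxanthin epoxidase at the head of the pathway, had 1.47 and 0.60 and thus missed both limits narrowly. CYP707A2, which inactivates ABA, had 1.21 in iU1-52 and -0.13 in Col-0, and the ABA exporter ABCG25 had 0.86 and -0.48.

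None of 17 measured genes of ABA signaling was a member, where 58 of 24332 features were, and nothing is read from that absence. Of these 17, 7 were called higher with salt in iU1-52, 5 in Col-0 and 5 for the difference, with medians of 0.89 in iU1-52 and 0.02 in Col-0. Over all features, 12.1% were called higher in iU1-52, 9.81% in Col-0 and 3.14% positive for the difference. The phosphatase AHG1 and the bZIP factor ABI5, both known from seeds, had salt differences of 4.51 and 4.76 in iU1-52 and of 1.63 and 2.24 in Col-0. Among 12 ABA and cold response targets, 9 were called in iU1-52, 8 in Col-0 and 5 for the difference, with medians of 1.96 in iU1-52 and 2.00 in Col-0, and 0 were members. The dehydrin gene RAB18 was kept out by the Col-0 limit alone, with 1.94 in iU1-52 and 0.51 in Col-0.

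**Figure D3:**
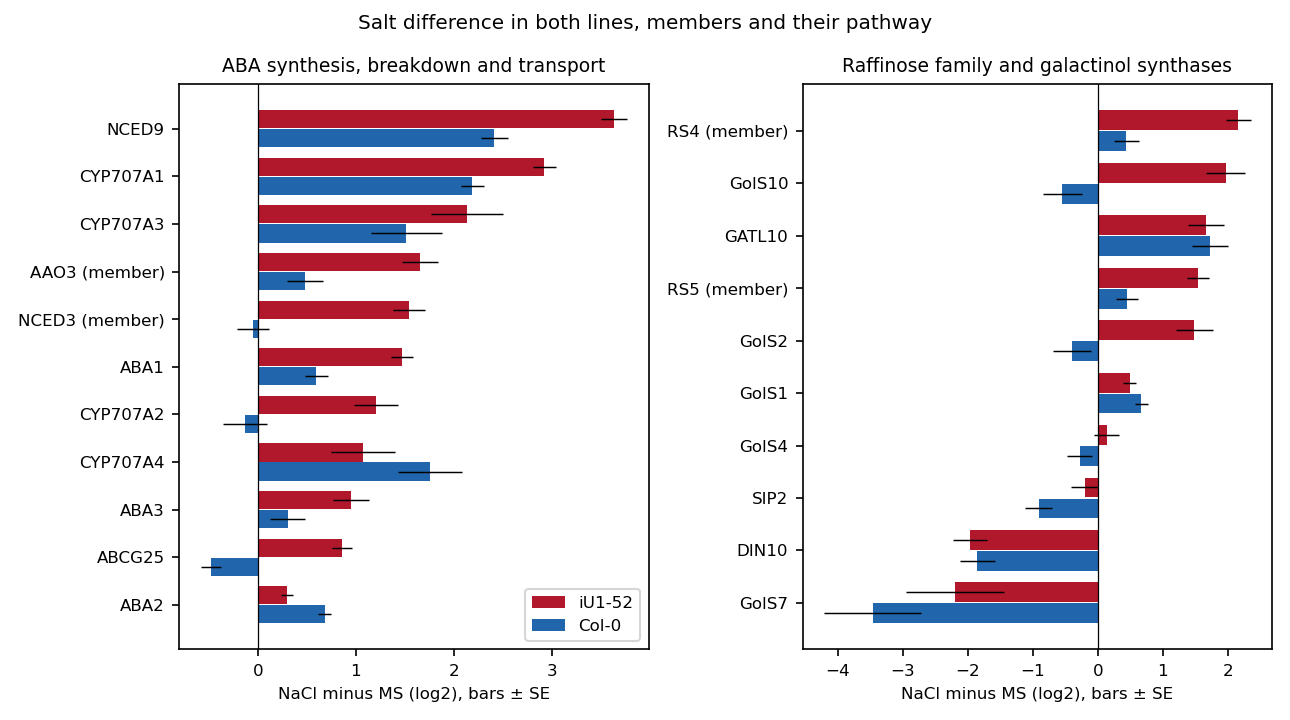
Salt difference (NaCl minus MS, log2) in iU1-52 (red) and Col-0 (blue) for the 11 measured genes of ABA synthesis, breakdown and transport (left) and for 10 measured genes annotated as raffinose family or galactinol synthases (right), with bars of the limma standard error. Members show a long red and a short blue bar, and several non-members such as NCED9 and GATL10 have long bars in both lines.

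A second set of members acts on soluble sugars and starch. RS4, annotated as both raffinose synthase 4 and stachyose synthase, had 8.27, 8.71 and 8.63 in iU1-52 on NaCl and 6.04, 6.63 and 6.45 in iU1-52 on MS, against 7.23, 7.44 and 7.28 in Col-0 on NaCl and 7.27, 6.74 and 6.63 in Col-0 on MS. On MS, the highest iU1-52 array and the lowest Col-0 array were at about the same level, and the other arrays of the lines did not overlap. The salt differences were 2.16 in iU1-52 and 0.44 in Col-0 (SE 0.19 each), and the difference between them was 0.98 with normexp in place of 1.73.

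RS5, the raffinose synthase known from abiotic stress, had 12.43, 13.21 and 13.10 in iU1-52 on NaCl and 11.36, 11.29 and 11.46 in iU1-52 on MS, against 11.45, 11.71 and 11.73 in Col-0 on NaCl and 11.25, 11.17 and 11.13 in Col-0 on MS. In RS5 the Col-0 arrays on NaCl all lay above those on MS, by 0.45 on average, against 1.54 in iU1-52.

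The family as a whole did not move as one. Of 16 genes annotated as raffinose, stachyose or galactinol synthases or as seed imbibition proteins, a set looked up after the members were known, 11 were measured. Galactinol synthases supply the galactosyl donor for raffinose. GolS2 missed the iU1-52 limit with 1.49 and had -0.40 in Col-0, and GolS10 had 1.97 in iU1-52 but fell outside the Col-0 limit with -0.54. For both, the difference between the 2 salt responses was positive, at 1.89 (SE 0.41, adjusted p = 0.00692) and 2.52 (SE 0.42, adjusted p = 0.00165, limma over all features). GolS1 had 0.50 in iU1-52 and 0.67 in Col-0, SIP2 had -0.20 and -0.91, and DIN10, a dark-inducible gene annotated as raffinose synthase 6, had -1.97 and -1.85.

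BAM1, a plastid beta-amylase that breaks down starch under osmotic stress, had 14.31, 15.01 and 15.08 in iU1-52 on NaCl and 13.17, 13.14 and 13.25 in iU1-52 on MS, against 13.57, 13.73 and 13.76 in Col-0 on NaCl and 13.61, 13.22 and 13.27 in Col-0 on MS. SPS2F, a sucrose-phosphate synthase, had 10.84, 12.42 and 11.87 in iU1-52 on NaCl and 10.18, 10.15 and 10.20 in iU1-52 on MS, against 10.34, 10.48 and 10.47 in Col-0 on NaCl and 10.19, 10.09 and 10.32 in Col-0 on MS. The SPS2F values on NaCl in iU1-52 were the most scattered of all members in that group (SD 0.80, n = 3), and its difference there was 0.66 on slide 1, 2.26 on slide 2 and 1.67 on slide 3. G6PD4, named after the glucose-6-phosphate dehydrogenases, was even by contrast, and whether it acts on these sugars was not tested. It had 11.48, 11.40 and 11.51 in iU1-52 on NaCl and 9.86, 9.87 and 9.55 in iU1-52 on MS, and all Col-0 arrays lay between 9.85 and 10.19. It was 1 of 6 members that met the rule under every one of 20 alternatives able to change membership.

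**Figure D4:**
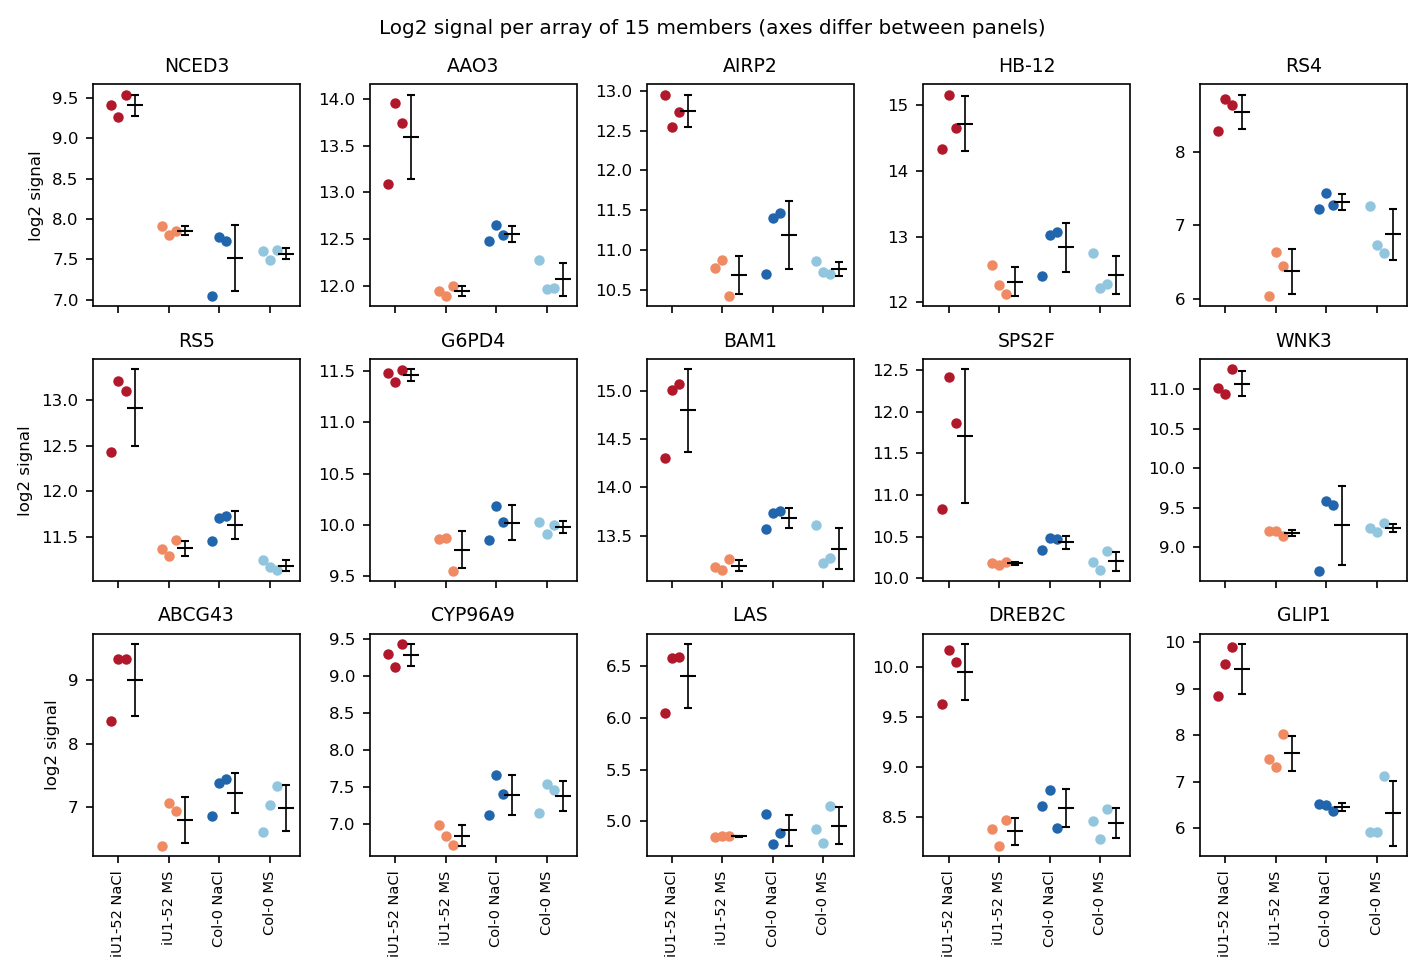
Log2 signal of 15 members on each array, with 3 points a group and the mean with its SD beside them. In each panel the 3 points of iU1-52 on NaCl lie above the other 9, and SPS2F and ABCG43 have 1 of those points clearly below its replicates.

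Members also included 7 transcription factor genes. The largest difference was that of HB-12, given above. WOX9, a WUSCHEL-related homeobox gene of meristem growth and embryo patterning, had 6.56, 6.78 and 6.58 in iU1-52 on NaCl, 5.43, 4.88 and 4.35 in iU1-52 on MS, 4.72, 4.85 and 5.37 in Col-0 on NaCl and 4.79, 4.30 and 4.85 in Col-0 on MS. Those signals were low, and the 3 groups other than iU1-52 on NaCl overlapped. LAS, the GRAS-family gene Lateral Suppressor that is needed for axillary meristems, had 6.05, 6.58 and 6.58 in iU1-52 on NaCl, and its other 9 arrays lay between 4.78 and 5.15. With normexp background correction the difference between the 2 salt responses was 0.56 for WOX9 in place of 1.42 and 0.64 for LAS in place of 1.59.

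DREB2C, an AP2/ERF factor of the dehydration and heat response, had 9.63, 10.16 and 10.04 in iU1-52 on NaCl and 8.38, 8.22 and 8.47 in iU1-52 on MS, against 8.61, 8.77 and 8.39 in Col-0 on NaCl and 8.46, 8.28 and 8.58 in Col-0 on MS. Its Col-0 groups overlapped. MYB7, an R2R3-MYB repressor, had 11.96, 12.22 and 12.19 in iU1-52 on NaCl and 10.54, 10.57 and 10.62 in iU1-52 on MS, against 10.58, 10.89 and 10.84 in Col-0 on NaCl and 10.28, 10.21 and 10.33 in Col-0 on MS. The 4 groups of MYB7 did not overlap except for iU1-52 on MS and Col-0 on NaCl, and its Col-0 difference of 0.49 was just inside the limit. The MYB gene of secondary walls MYB85 and the basic helix-loop-helix gene bHLH093 had 1.5003 and 1.52 in iU1-52, against 0.26 and 0.35 in Col-0, and for MYB85 the difference between the lines was 0.72 with normexp in place of 1.24.

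WNK3, of the with-no-lysine protein kinases, had 11.02, 10.94 and 11.26 in iU1-52 on NaCl and 9.20, 9.21 and 9.14 in iU1-52 on MS, against 8.70, 9.59 and 9.54 in Col-0 on NaCl and 9.24, 9.20 and 9.30 in Col-0 on MS. Its mean difference in Col-0 of 0.03 came from replicate 1 below and replicates 2 and 3 above the MS arrays, by -0.55, 0.39 and 0.24 within slides. The ABC transporter gene ABCG43 had 8.35, 9.32 and 9.32 in iU1-52 on NaCl and 6.40, 7.07 and 6.94 in iU1-52 on MS, against 6.87, 7.39 and 7.44 in Col-0 on NaCl and 6.62, 7.03 and 7.33 in Col-0 on MS. The 2 Col-0 groups overlapped. ABCA7, another ABC transporter gene, had differences of 2.05 in iU1-52 and 0.47 in Col-0.

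Enzymes of small-molecule metabolism followed. The cytochrome P450 gene CYP96A9 had 9.29, 9.12 and 9.42 in iU1-52 on NaCl and 6.99, 6.83 and 6.71 in iU1-52 on MS, against 7.12, 7.66 and 7.41 in Col-0 on NaCl and 7.15, 7.54 and 7.46 in Col-0 on MS. Its Col-0 difference was 0.01 (SE 0.15) and its iU1-52 difference 2.44, a fold of 5.41. CYP89A3, another P450 gene, was less even, with 7.54, 6.88 and 6.08 in iU1-52 on NaCl and 4.74 to 5.43 on the other arrays. UGT71C2 and UGT73D1, which encode glycosyltransferases that use UDP-sugars, had 1.65 and 1.56 in iU1-52, against 0.40 and 0.48 in Col-0. The methyltransferase gene NAMT1 had 1.57 and 0.18.

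Lipid-related members were GLIP1, a secreted GDSL lipase of pathogen defence, PLP4, a patatin-related phospholipase, and ACBP5, an acyl-CoA-binding protein. GLIP1 had 8.84, 9.54 and 9.90 in iU1-52 on NaCl and 7.49, 7.31 and 8.04 in iU1-52 on MS, against 6.53, 6.51 and 6.37 in Col-0 on NaCl and 5.93, 5.91 and 7.13 in Col-0 on MS. All 6 iU1-52 arrays lay above all 6 Col-0 arrays, which sets GLIP1 apart from members with like levels of both lines on MS. PLP4 and ACBP5 had differences of 1.74 and 1.52 in iU1-52, against 0.42 and 0.25 in Col-0.

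Other named members have roles outside these groups. ZYP1a, a synaptonemal complex protein of meiosis with a near-identical neighbour that a probe may not tell apart, had 6.66, 6.46 and 6.95 in iU1-52 on NaCl, and its other arrays lay between 4.00 and 4.96. AIG2L, named after an avirulence-induced gene, had 10.56, 10.41 and 10.09 in iU1-52 on NaCl and 7.43, 7.66 and 9.05 in iU1-52 on MS, against 7.99, 8.26 and 8.08 in Col-0 on NaCl and 8.40, 8.07 and 8.86 in Col-0 on MS. Its Col-0 difference of -0.33 was the lowest of all members. The major latex protein-like genes MLP168 and MLP28 had 1.94 and 1.56 in iU1-52, the microtubule-associated WVD2 had 1.62, and AT1G71360, whose annotated synonym is SUN4, had 1.72 with all 3 iU1-52 arrays on NaCl between 12.95 and 12.97.

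The 22 matched loci without a gene name held the 2 largest differences. AT1G08170 had 10.19, 9.71 and 9.95 in iU1-52 on NaCl, against 4.99, 6.39 and 7.55 in iU1-52 on MS, 6.86, 7.24 and 7.61 in Col-0 on NaCl and 6.48, 7.32 and 7.37 in Col-0 on MS. The size of its difference in iU1-52, 3.64 (SE 0.51), rested in part on the scattered MS arrays, and within slides it was 5.20, 3.32 and 2.40. AT5G49690 had 9.30, 9.75 and 9.66 in iU1-52 on NaCl and 5.95 to 6.82 on the other arrays, a difference of 2.88 (SE 0.19). AT1G62620 was a member because of 1 array. Its Col-0 values were 6.66, 6.88 and 6.79 on NaCl and 7.83, 5.64 and 5.58 on MS, and without replicate 1 of Col-0 on MS its Col-0 difference was 1.17 in place of 0.43. Without it, AT1G62620 is outside the rule. Other members also left the rule without 1 array. Without replicate 1 of Col-0 on NaCl, the Col-0 difference was 0.67 for AIRP2, 0.63 for HB-12 and 0.53 for RS5. It was 0.63 for RS4 without replicate 1 of Col-0 on MS, and 0.77 for UGT73D1 without replicate 3 of that group. Some members fell below the iU1-52 limit instead. Without replicate 2 of iU1-52 on NaCl, the iU1-52 difference was 1.17 for SPS2F and 1.48 for AAO3. Without replicate 3 of that group it was 1.37 for bHLH093 and 1.48 for NCED3.

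Levels on MS were the measure that the rule did not fix, although the same MS arrays entered both salt differences. None of the 58 members was called different between iU1-52 and Col-0 on MS, where 0.267% of all features, 65 of 24332, were called. At an adjusted p alone the count was also 0, the lowest adjusted p being 0.22 (limma), and 8 of 58 members (13.8%) were below an unadjusted p of 0.05, where 5.76% of all features were. GLIP1 was 1.29 higher in iU1-52 on MS (SE 0.34, adjusted p = 0.22; 0.79 with normexp) and UGT73D1 0.74 higher (SE 0.22, adjusted p = 0.32). Without replicate 3 of Col-0 on MS, UGT73D1 alone was called, 1.04 higher (limma, adjusted p = 0.0351). The 65 calls over all features became 2 without slide 2 and 8 without slide 3. Across members the difference on MS ran from -0.74 to 1.29 with a median of -0.10, and it was below 0 for 40 and above 0 for 18. Over all features the median was -0.01, with 13823 below 0 and 10508 above. The iU1-52 arrays on MS also enter the salt difference that the rule required to be large, so nothing is read from the members' split. A p above the limit does not show that the lines had equal levels.

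Replicates of the members varied more than those of most features. The median SD over members was 0.28 in iU1-52 on NaCl, 0.14 in iU1-52 on MS, 0.17 in Col-0 on NaCl and 0.17 in Col-0 on MS, against 0.21, 0.08, 0.07 and 0.08 over all features. In Col-0 on NaCl, replicate 1 was the lowest of the 3 arrays for 41 of the 58 members, where it was so for 35.1% of all features. In iU1-52 on NaCl, replicate 1 was the lowest for 29 of 58, against 41.9% of all features, and this array also had the lowest 75th percentile of signal before normalization, 2503, where the others had 2945 to 3920. Without this array 90 features met the rule, 51 of them among the 58.

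The slides are parts of the means that chose the members, so their values are given only as a description of the spread. The median salt difference over members in iU1-52 was 1.63 on slide 1, 1.84 on slide 2 and 1.82 on slide 3, and 34, 48 and 48 members reached 1.5 there. In Col-0 the medians were 0.20, 0.51 and 0.24, and 47, 28 and 40 members stayed within 0.5. Both limits were met on a slide by 30, 21 and 33 members.

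**Figure D5:**
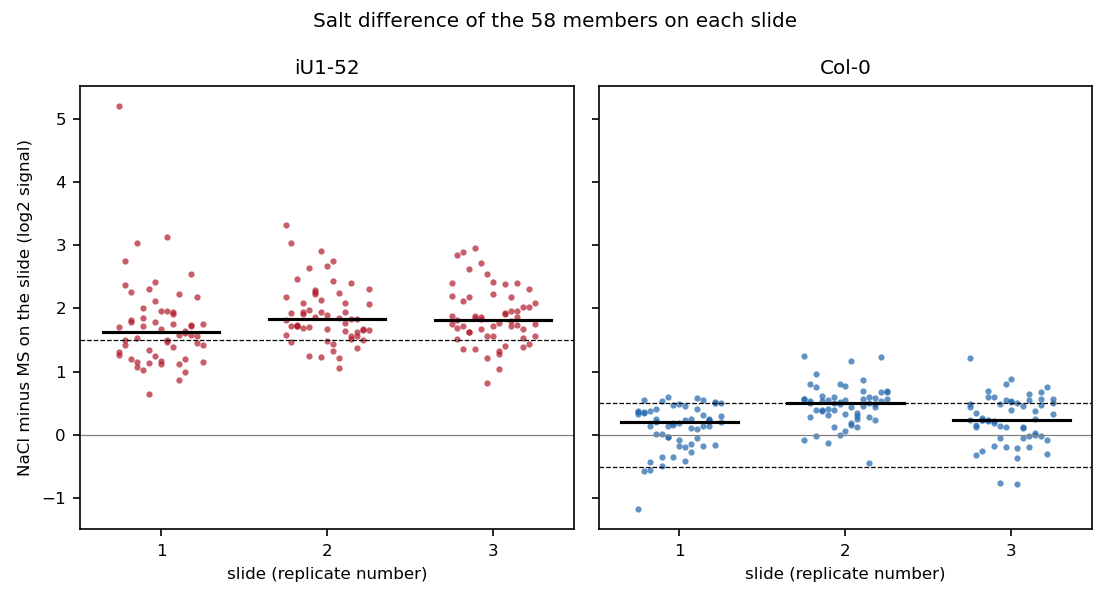
Salt difference of each of the 58 members within each slide (NaCl minus MS, log2 signal), in iU1-52 (left) and Col-0 (right), with medians as black lines and the limits as dashed lines. The iU1-52 medians are 1.63, 1.84 and 1.82, and the Col-0 median on slide 2, 0.51, is higher than on slides 1 and 3.

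The rule was also applied to 2 slides at a time and the genes so chosen were read on the slide left out. The filter, the normalization and the choice of probe had used all 12 arrays, so the slide left out was not fully apart from the selection. Leaving out slide 1, 2 or 3 gave 70, 82 and 60 genes, of which 33, 44 and 35 were among the 58. On the slide left out, their median salt difference in iU1-52 was 1.18, 1.67 and 1.88, and 47 of 70, 79 of 82 and 58 of 60 reached 1.0, where 14.3%, 12.5% and 11.8% of all features did. The limit of 1.5 was reached there by 20, 49 and 42 genes. The difference in iU1-52 was above that in Col-0 for 66 of 70, 80 of 82 and 58 of 60. On the group means, it was so for 13361 of 24332 features. Compared with the limit of 1.5, the Col-0 limit was met by more of the chosen genes with slide 1 left out. It was met by fewer with slide 2 or slide 3 left out. The median difference of the chosen genes in Col-0 on the slide left out was 0.25, 0.57 and 0.55. Within 0.5 there stayed 47 of 70, 31 of 82 and 25 of 60. On the group means, 12691 of 24332 features were within 0.5 in Col-0, and the share on single slides was not counted. These readings are given without a test.

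Other probes of the same loci gave a further reading from the same RNA. Of 16 such probes, 10 were well above background on all arrays, 1 for each of 10 loci. All 10 were at least 1.0 higher with salt in iU1-52 and higher there than in Col-0. Of them, 6 reached 1.5, 8 were within 0.5 in Col-0, and 4 met both limits. Over all 24332 features, 1605 reached 1.5 and 12691 were within 0.5 in Col-0. The loci had been chosen by their values in this RNA, so the counts are a description. The second probe of AIG2L gave 2.24 in iU1-52 and -0.40 in Col-0, that of MYB7 gave 1.58 and 0.44, that of SPS2F 1.32 and 0.08 and that of UGT71C2 1.66 and 0.46. The second probe of AT1G03230 differed most in Col-0, with 0.88 there and 2.17 in iU1-52.

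The limits passed through a continuous range of values. Just inside the iU1-52 limit were MYB85 (1.5003), AT3G59190 (1.504) and AT3G51540 (1.511), and just outside were PBP1 (1.4998), AT1G69800 (1.4988) and probe A_84_P13620 (1.497). Just inside the upper Col-0 limit were probe A_84_P834156 (0.50), MYB7 (0.49) and AAO3 (0.49), and just outside were MIOX2 (0.50), RAB18 (0.51) and AT3G50540 (0.52). Few genes lay near the lower Col-0 limit, where AIG2L (-0.33) was the closest inside and GolS10 (-0.54) the closest outside. The strip between the Col-0 limits held 12691 features, and 220 of them were at least 1.5 lower on salt in iU1-52, while 27 features had the opposite pattern to the members, at least 1.5 higher in Col-0 and within 0.5 in iU1-52.

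By annotation the 54 matched loci lay on all 5 chromosomes, with 12, 6, 12, 7 and 17 on chromosomes 1 to 5, and no member adjoined another. The spread of all features over the chromosomes was not counted, and nothing is read from these positions. None of the 24 measured genes of the unfolded protein response, which is tied to N-glycosylation in the endoplasmic reticulum, was a member. Of these, 7 were called higher with salt in iU1-52 and 5 in Col-0, where 12.1% and 9.81% of all features were. For the difference 6 were called positive, where 3.14% of all features were, and 1 negative, where 1154 of 24332 were. Their median salt differences were 0.85 in iU1-52 and 0.05 in Col-0. The chaperone genes SHD and CNX1 had 1.08 and 0.86 in iU1-52, against 0.0036 and -0.14 in Col-0, with differences between the lines of 1.08 (adjusted p = 0.00017) and 1.00 (adjusted p = 0.001, limma). The 1 negative call was that of BIP3, with -0.45 in iU1-52, 1.48 in Col-0 and a difference of -1.93 (adjusted p = 0.038, limma). On MS, BIP3, TIN1 and TMS1 were already higher in iU1-52 than in Col-0, by 4.56, 1.42 and 1.14 (adjusted p = 0.00141, 0.00241 and 0.0346, limma). No member came from the measured genes of heat shock (14), hypoxia (11), senescence (19) or autophagy (12) that were listed. As only 58 of 24332 features were members, lists of these sizes would seldom hold one, and nothing is read from the absences.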

How the data were processed

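RNA of 12 seedling samples was labelled with Cy3 and hybridized to Agilent 4x44K arrays, 1 sample an array, and the authors deposited Feature Extraction 10.7.1.1 scanner files, whose processed signal is a background-corrected intensity per spot per the file headers. The deposited intensities are not normalized between arrays. Of 43803 non-control spots, spots flagged as outliers were left out and replicate spots of 43603 probes averaged. The 31522 probes flagged well above background on all arrays were quantile normalized and transformed to log2 with a floor of 1. The brightest probe of each accession was kept. Accessions were matched to TAIR10.1 loci (20649 of 24332). A gene silent on MS could not pass this filter.

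A linear model with 1 mean per group was fitted to all 24332 features in limma 3.58.1 (R 4.3.3), with p-values adjusted by Benjamini-Hochberg over all of them. Calls needed an adjusted p under 0.05 together with at least a 2-fold change. All differences are on the log2 scale and run iU1-52 minus Col-0 or NaCl minus MS, and SE is the standard error from limma's moderated fit. Scripts were tested on simulated data in which known genes had been changed. The members and the gene lists were chosen with earlier results of these data known. Genes named were the 20 members with the largest iU1-52 difference that carry a gene name, members in the lists, regulators and transporters by annotation, the features nearest each limit and the targeted genes. The raffinose family, the members SPS2F, NAMT1, ACBP5, MLP28, UGT73D1, AT1G71360, AT1G08170, AT5G49690, AT1G62620, AT1G03230 and AT3G59480, the members called on salt in Col-0, the members called in neither or 1 comparison and the example genes of the lists were singled out after their values were seen. Alternatives were another scaling, normexp background correction, another filter, the mean of all probes, array weights, the slide as a block and leaving out arrays. Precision is limited by having 3 arrays in each group. The 3 arrays of a group were biological replicates per the study methods, with nothing further on cultures, so p-values measure the spread between these samples. The result for 1 member is not reported here.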

Additional observations from a re-analysis of the deposited data

Results flagged for a closer look

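For 55 of the 58 members, the salt response differed between iU1-52 and Col-0 in limma's test of that difference at an adjusted p under 0.05 and at least 2-fold. The members were selected for such a difference, so the count describes how far the limits of the rule exceeded the error of the arrays, and 3.14% of all features had a positive call. The members without a call were AT1G62620, AT4G16563 and AT3G51540.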

How the results depend on the processing

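Across 23 alternatives the number of members ran from 40 with normexp to 90 without iU1-52 NaCl replicate 1. Leaving out single arrays gave 45 (without Col-0 NaCl replicate 1) to 90, and leaving out a slide 60 to 82. Between 26 of the 58 (normexp) and all 58 met the rule again. Of 20 alternatives able to change membership, 6 members (ABCG43, AT1G08170, AT3G59480, CYP96A9, G6PD4 and WNK3) met the rule in all, and AT3G59190 and MYB85 in fewer than 10. Of 575 values of 22 members followed, 547 kept within their replicate spread or side of the limit, 28 did not and 0 reversed. The count called between the lines on MS, 65, was 120 at an adjusted p alone, 99 with array weights and 42 with normexp, and leaving out arrays gave 2 (without slide 2) to 83 (without iU1-52 NaCl replicate 1). That called on NaCl, 2169, was 12299 at an adjusted p alone. That called for the difference in salt response, 1918, was 6761 at an adjusted p alone and 1226 (without slide 3) to 2859 (without iU1-52 NaCl replicate 1) when arrays were left out. Of the 58 members, 0 were called on MS except for UGT73D1 without Col-0 MS replicate 3 (1.04, adjusted p = 0.035). Without slide 2 or slide 3, 31 and 33 members were called for the difference, in place of 55. The replicate block, in which the replicate number is the slide, gave 59 calls on MS and 1912 for the difference, with the same 58 members by construction. In deviations from the group means, 7 of 18 same-numbered pairs of arrays correlated above 0.1, over a range of -0.07 to 0.32. The cause of the shifts above was not tested. The difference between the lines for LAS and WOX9 was 0.64 and 0.56 with normexp. Genes not well above background on all 12 arrays were not assessed.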

Other observations

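Among listed genes that were not members, some had a like pattern below the limits. The heat shock factor gene HSFA2 had a salt difference of 1.28 in iU1-52 and -0.04 in Col-0, and the difference between the lines was 1.32 (SE 0.39, adjusted p = 0.0281, limma). Of 14 measured heat shock genes, 6 were called positive for that difference, where 3.14% of all features were. The chaperone gene HSP101 reached it from the other side, with -0.0017 in iU1-52 and -1.43 in Col-0, and a difference of 1.43 (adjusted p = 0.00552).

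None of 11 measured hypoxia genes was called higher with salt in either line, where 12.1% of all features were in iU1-52 and 9.81% in Col-0. In iU1-52 3 were called lower and in Col-0 5, where 3034 and 2510 of 24332 features were. For the difference between the lines 5 were called positive, where 3.14% of all features were. The pyruvate decarboxylase gene PDC1 had -1.06 in iU1-52 and -2.72 in Col-0, and the alcohol dehydrogenase gene ADH1 had 0.42 and -0.89. The plant cysteine oxidase gene PCO1 was nearer to the members, with 0.93 in iU1-52 and -0.13 in Col-0. These genes were picked after their values were seen.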
